A study of Mus musculus with 4 samples.

Results

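Of the 55536 genes in the count table, 8 are described here: the gamma-aminobutyric acid (GABA) synthesis genes Gad1 and Gad2, the granule membrane genes Ptprn and Ptprn2, the autoantigen genes Ica1 and Tspan7, the vesicular GABA transporter gene Slc32a1 and the GABA breakdown gene Abat. They were chosen by symbol, and each symbol occurred once in the table. Bulk RNA sequencing was done on islets (clusters of endocrine cells within the pancreas) from male C57BL/6 mice aged 8 weeks, in 4 libraries of polyadenylated RNA. In 2 insulin-depleted libraries a DepleteX panel of Jumpcode Genomics removed insulin sequences during library preparation, and 2 non-depleted libraries were made without that step. The labels name no genetic alteration in any group, and depletion is a step on the library, not on the animal.

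The libraries held 19316173 and 65030111 counts in insulin-depleted replicates 1 and 2, against 50605417 and 60528485 counts in non-depleted replicates 1 and 2. Ins1 and Ins2, the insulin genes, took 0.195 and 0.264% of counts in the insulin-depleted libraries and 4.14 and 3.97% in the non-depleted libraries, so the labels and the targeted genes point the same way. The non-depleted columns alone have a size-selection mark in their names, and the effect of such a step cannot be told apart from that of depletion. The labels call the libraries of a group biological replicates, and all 4 column names carry the same pair of codes, so a p-value here speaks to the spread of these libraries, which may be technical. Levels are CPM, a gene's counts scaled to the same library total, with Ins1 and Ins2 left out of that total. Levels of different genes are compared per kilobase of the union of their annotated exons. Of the other markers of an islet, the alpha-cell hormone gene Gcg had a mean of 11927 CPM in insulin-depleted and 12064 CPM in non-depleted libraries, and the delta-cell hormone gene Sst had 595 and 596 CPM.

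GABA is made from glutamate by glutamate decarboxylase, which exists in forms encoded by Gad1 (GAD67) and Gad2 (GAD65). It is loaded into vesicles by the transporter encoded by Slc32a1 and broken down in mitochondria by GABA transaminase, encoded by Abat. Beta cells contain GABA, and GAD65, the products of Ptprn (IA-2) and Ptprn2 (phogrin, also IA-2 beta), ICA69 (Ica1) and tetraspanin-7 (Tspan7) are known as targets of autoantibodies in human type 1 diabetes. IA-2 and phogrin are transmembrane proteins of dense-core secretory granules with an inactive phosphatase-like domain.

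The members covered a wide range of levels. Ptprn was the highest, with a mean of 179 ± 16.6 CPM per kilobase over the 4 libraries (SD, n = 4), and ranked 156 among all genes on that scale. Ptprn2 followed with 58.2 ± 7.08, then Ica1 with 32.0 ± 1.498, Tspan7 with 31.5 ± 1.78, Gad1 with 20.5 ± 1.37 and Abat with 10.7 ± 1.20 CPM per kilobase (SD, n = 4 each). Gad2 had 0.0410 ± 0.0160 CPM per kilobase (SD, n = 4), and Slc32a1 had no count in any library.

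Of the neighbours in this order, the 4 values of Ica1 and Tspan7 overlapped, at 30.2 to 33.6 and 29.9 to 33.7 CPM per kilobase. The 4 values of every other neighbouring pair lay apart. Annotated length matters here, because exon unions of 3 to 9 kilobases stand for transcripts of different sizes. With the longest annotated transcript as the length, Gad1 (43.4 ± 2.90 CPM per kilobase) stood above Tspan7 (31.5 ± 1.78), and Ica1 (50.01 ± 2.34) above both (SD, n = 4 each), while the other places in the order did not change.

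**Figure D1:**
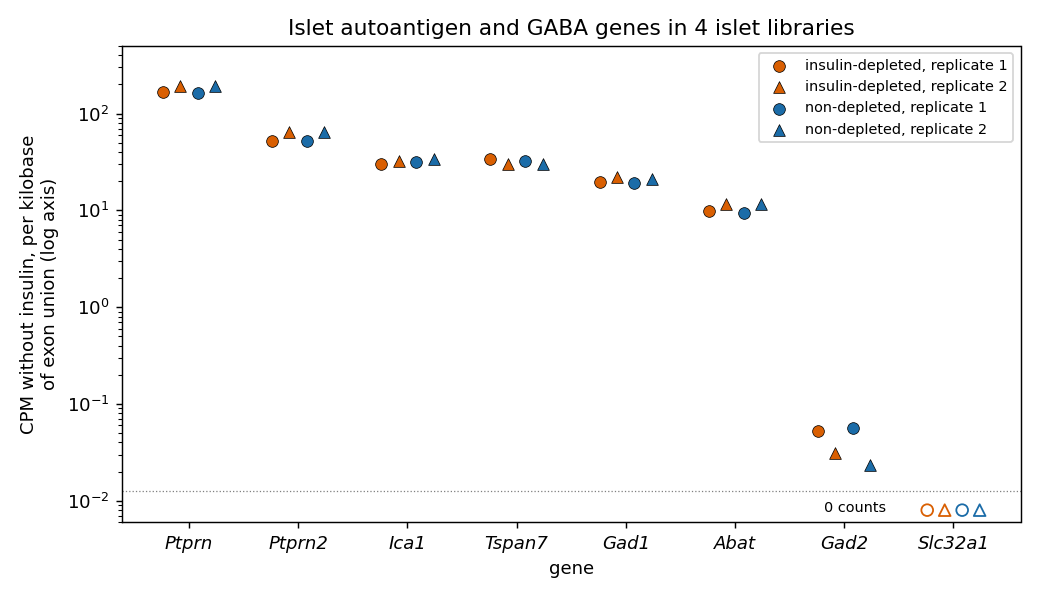
Level of each of the 8 genes in each library, as CPM without insulin per kilobase of exon union on a log axis; circles are replicate 1, triangles replicate 2, and open symbols under the dotted line stand for 0 counts. Ptprn sits at 163 to 195, Gad1 at 19.2 to 22.1 and Gad2 at 0.0234 to 0.0561 CPM per kilobase.

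Gad1 carried nearly all glutamate decarboxylase RNA of these islets. Gad1 (ENSMUSG00000070880, chromosome 2, 70553072 to 70602014, plus strand, GRCm38) had 2885 and 10970 counts in insulin-depleted replicates 1 and 2, against 7099 and 9335 counts in non-depleted replicates 1 and 2. These are 149.6 and 169 CPM in the insulin-depleted libraries and 146 and 161 CPM in the non-depleted ones. The groups overlapped, with the replicates numbered 2 the higher of each group.

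Gad2 (ENSMUSG00000026787, chromosome 2, 22622205 to 22693874, plus strand, GRCm38) had 6 and 12 counts in insulin-depleted replicates 1 and 2, against 16 and 8 counts in non-depleted replicates 1 and 2. These few counts are 0.311 and 0.185 CPM in insulin-depleted and 0.330 and 0.138 CPM in non-depleted libraries. The deepest library, insulin-depleted replicate 2, did not hold the most. All 4 counts are even, and among genes with 2 to 9 counts 80.0 to 84.0% of counts were even in the 4 libraries. How read pairs were counted is not given in the sources used here.

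Gad2 took 0.208% of the summed Gad1 and Gad2 counts in insulin-depleted replicate 1, with a 95% interval (exact, Clopper-Pearson) of 0.0762 to 0.451%, and 0.109% in insulin-depleted replicate 2 (0.0565 to 0.191%). Its share was 0.225% in non-depleted replicate 1 (0.129 to 0.365%) and 0.0856% in non-depleted replicate 2 (0.0370 to 0.169%). The intervals cover counting error only and overlap between the groups. With 2 counts taken as 1, a choice made after seeing the data, they widened to 0.0428 to 0.606% and 0.0401 to 0.238% in insulin-depleted replicates 1 and 2, and to 0.0971 to 0.443% and 0.0233 to 0.219% in non-depleted replicates 1 and 2.

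Per kilobase, Gad1 stood 370 and 703 times above Gad2 in insulin-depleted replicates 1 and 2, and 341 and 898 times above it in non-depleted replicates 1 and 2. The mean log2 ratio of Gad2 over Gad1 was -9.05 ± 0.69 (SD, n = 4), and Gad2 was the lower in 4 of 4 libraries (exact two-sided sign-flip permutation p = 0.125, the smallest that 4 libraries allow). With the longest annotated transcripts as lengths the mean was -10.11, and with the mean length of protein-coding transcripts -11.35. That mean length is 1523.4 bases for Gad1, shorter than its longest coding sequence of 1779 bases. The log2 ratio differed by 0.12 between 2 insulin-depleted and 2 non-depleted libraries (-8.99 ± 0.66 in insulin-depleted and -9.11 ± 0.99 in non-depleted libraries, SD, exact two-sided permutation p = 1.00, in a design of 2 against 2 that cannot pass 0.05). Within replicate numbers 1 and 2 the difference was -0.12 and 0.35, and with a library left out it was -0.58 to 0.82.

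The coding sequences of the 2 genes are alike enough to ask whether reads of one could count for the other. Over 1740 aligned coding bases, 67.1% were identical, and the longest stretch shared without a difference was 17 bases. No 31-base stretch of any annotated Gad2 transcript occurred in a Gad1 transcript. The shared stretch is shown because it is where the 2 coding sequences are closest, at coding bases 1204 to 1220 of Gad1 and 1180 to 1196 of Gad2, counted from the start codon. It holds the codon of the lysine that binds the pyridoxal phosphate cofactor of the enzyme. Capitals mark the identical bases, read from GENCODE M21 transcripts of GRCm38, 5′ to 3′.
Gad1: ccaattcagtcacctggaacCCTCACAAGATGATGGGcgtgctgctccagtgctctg
Gad2: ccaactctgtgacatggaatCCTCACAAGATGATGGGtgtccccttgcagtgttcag
The bases on either side of the stretch differ between the genes at several places.

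The sequences before the RefSeq starts of Gad1, Gad2 and Slc32a1 are shown because these genes of GABA synthesis and storage differ so widely in level. Each is the 250 bases before the RefSeq start (GRCm38.p6), with CG dinucleotides in capitals: chr2:70561879-70562128, chr2:22622077-22622326 and chr2:158610508-158610757, all on the plus strand. RefSeq starts differ from the GENCODE M21 gene starts given above. The Gad1 window lies inside the GENCODE gene, which starts at 70553072, and the Gad2 window runs past the GENCODE start at 22622205.
Gad1: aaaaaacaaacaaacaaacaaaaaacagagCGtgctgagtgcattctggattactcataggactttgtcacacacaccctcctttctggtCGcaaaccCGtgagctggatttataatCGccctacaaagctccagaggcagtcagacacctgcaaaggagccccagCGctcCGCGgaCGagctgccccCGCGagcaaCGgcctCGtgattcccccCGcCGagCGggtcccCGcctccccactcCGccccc
Gad2: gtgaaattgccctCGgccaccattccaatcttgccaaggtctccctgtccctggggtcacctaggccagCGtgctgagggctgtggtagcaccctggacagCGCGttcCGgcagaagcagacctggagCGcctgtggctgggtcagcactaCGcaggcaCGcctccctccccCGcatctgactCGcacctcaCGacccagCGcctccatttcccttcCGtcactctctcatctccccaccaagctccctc
Slc32a1: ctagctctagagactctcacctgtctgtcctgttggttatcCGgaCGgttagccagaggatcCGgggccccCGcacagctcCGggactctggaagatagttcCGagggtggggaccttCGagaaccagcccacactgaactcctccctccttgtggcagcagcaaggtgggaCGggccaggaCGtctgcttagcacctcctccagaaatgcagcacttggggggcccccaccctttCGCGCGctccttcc
Gad1 held 17 CG dinucleotides, Gad2 13 and Slc32a1 12, against a median of 6 over 32851 such windows of RefSeq genes. These counts lay at percentiles 77.4, 69.5 and 67.5 of those windows. G and C made up 58.0, 64.0 and 62.4% of the bases in the same order, against a median of 52.4%.

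A few motifs were counted on both strands of the same windows. TATAAA occurred once in the Gad1 window, on the strand opposite to the gene (printed above as tttata), and in neither of the others. Of all windows, 12.4% hold it on either strand. CCAAT occurred once in the Gad2 window, and 33.8% of all windows hold it. The E-box CANNTG, which can share letters with CCAAT but did not do so here, occurred once in Gad1, once in Gad2 and 2 times in Slc32a1, and 66.2% of windows hold it. TGACGTCA was in none of the 3. A match is a run of letters in this window and no more.

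Slc32a1 (ENSMUSG00000037771, chromosome 2, 158610767 to 158615748, plus strand, GRCm38), the transporter that fills synaptic vesicles with GABA and glycine, had 0 counts in all 4 libraries. A count of 0 allows a level of 0.156 and 0.0463 CPM at most in the insulin-depleted libraries, and 0.0618 and 0.0516 CPM at most in the non-depleted ones (3 counts per library). A level below that can leave 0 counts at this depth, so it is not excluded. These limits are approximate and take each count as a separate event. They would be higher if counts came in twos. The list of 11 neuron markers is not specific to neurons that use GABA. It summed to 212 and 174 CPM in the insulin-depleted and 210.0 and 172 CPM in the non-depleted libraries. Its highest genes were Elavl4 and Vip, with means of 72.9 and 65.4 CPM over the 4 libraries. The nerve-cell gene Rbfox3 had a mean of 2.00 CPM. The vesicular glutamate transporter genes Slc17a7 and Slc17a6 had 0 to 4 counts per library, and Slc17a8 had 12 to 25.

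Abat (ENSMUSG00000057880, chromosome 16, 8513429 to 8621568, plus strand, GRCm38) had 76.7 and 90.2 CPM in insulin-depleted replicates 1 and 2, against 73.1 and 91.2 CPM in non-depleted replicates 1 and 2. Both libraries numbered 2 were higher than both numbered 1, and the groups overlapped. Aldh5a1, whose product takes the next step of GABA breakdown by oxidising succinic semialdehyde, had 58.3 and 64.1 CPM in the insulin-depleted and 54.5 and 68.3 CPM in the non-depleted libraries.

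Ptprn and Ptprn2 were both abundant, and Ptprn the more so. Ptprn (ENSMUSG00000026204, chromosome 1, 75247027 to 75264502, minus strand, GRCm38) had 704 and 828 CPM in insulin-depleted replicates 1 and 2, against 693 and 811 CPM in non-depleted replicates 1 and 2. It ranked 74 to 110 among all genes by CPM. Ptprn2 (ENSMUSG00000056553, chromosome 12, 116485720 to 117276849, plus strand, GRCm38) had 448 and 555 CPM in the insulin-depleted and 449 and 553 CPM in the non-depleted libraries, ranks 170 to 269. For each gene the 2 libraries of a number were close and the groups overlapped.

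In every library Ptprn had 1.47 to 1.57 times the counts of Ptprn2. Per kilobase it stood 3.18 and 3.02 times above Ptprn2 in insulin-depleted replicates 1 and 2, and 3.13 and 2.97 times above it in non-depleted replicates 1 and 2. The mean log2 ratio was 1.62 ± 0.05 (SD, n = 4, exact two-sided sign-flip permutation p = 0.125, the smallest that 4 libraries allow). The size depends on length, since the exon union of Ptprn2 (8602 bases) is longer than its longest transcript (4218 bases). The mean ratio was 1.80-fold with longest transcripts and 3.94-fold with the mean length of protein-coding transcripts, and Ptprn was the higher with each. That mean length is 1233.8 bases for Ptprn, shorter than its longest coding sequence of 2943 bases. The log2 ratio was 1.63 ± 0.05 in insulin-depleted and 1.61 ± 0.05 in non-depleted libraries (SD, n = 2 each), a difference of 0.03 (exact two-sided permutation p = 0.667). Within replicate numbers 1 and 2 the difference was 0.03 and 0.02, and with a library left out, which leaves the numbers unbalanced, it was -0.01 to 0.06.

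Over 2842 aligned coding bases, Ptprn and Ptprn2 were identical at 64.3%, and none of the 31-base stretches of Ptprn2 transcripts occurred in Ptprn. The longest shared coding stretch, shown for the same reason as that of Gad1 and Gad2, has 23 bases and lies near the end of both coding sequences, at coding bases 2878 to 2900 of Ptprn and 2938 to 2960 of Ptprn2.
Ptprn: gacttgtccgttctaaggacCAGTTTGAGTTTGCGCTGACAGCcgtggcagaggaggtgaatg
Ptprn2: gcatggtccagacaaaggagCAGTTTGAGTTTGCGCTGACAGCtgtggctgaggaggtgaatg
The antisense gene Gm28294 overlaps 4.45% of the exon bases of Ptprn and had 23 to 98 counts per library, against at least 13566 for Ptprn. How strand was used in counting is not given in the sources used here. The microRNA gene Mir153, which lies inside Ptprn2 on the same strand, had 0 to 3 counts in these polyadenylated RNA libraries.

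Ica1 (ENSMUSG00000062995, chromosome 6, 8630527 to 8778488, minus strand, GRCm38) encodes a protein with a membrane-curving BAR domain that binds PICK1. It had 97.9 and 106 CPM in insulin-depleted replicates 1 and 2, against 102 and 109 CPM in non-depleted replicates 1 and 2. Its paralog Ica1l had 10.9 and 12.6 CPM in the insulin-depleted and 10.7 and 12.6 CPM in the non-depleted libraries. The partner gene Pick1 had 15.7 and 11.5 CPM in insulin-depleted and 13.0 and 12.1 CPM in non-depleted libraries. All 3 genes overlapped between the groups.

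Tspan7 (ENSMUSG00000058254, chromosome X, 10485158 to 10596605, plus strand, GRCm38), which encodes a tetraspanin of the plasma membrane and granules, had 238 and 214 CPM in insulin-depleted replicates 1 and 2, against 226 and 211 CPM in non-depleted replicates 1 and 2. Tspan7 was the only one of the 6 members above 5 CPM that was lower in the libraries numbered 2, in both groups.

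No member passed the test of insulin-depleted over non-depleted libraries (edgeR quasi-likelihood test, Benjamini-Hochberg adjustment over all genes tested). Of the 8, 7 passed the filter on low counts and Slc32a1 did not. Among 19723 genes tested, 2 were called, Ins1 and Ins2, which is 0.0101% of genes tested, and 0 of the 7 members were. At an unadjusted p under 0.05 there were 82 genes and 0 members, and DESeq2 and limma-voom also called 0 members. With the replicate number as a block, edgeR called 9 genes (0.0456%) and again 0 members. The unadjusted p of that edgeR fit was under 0.05 for 853 genes and 0 members. The fit without a block counts the difference between replicate numbers as error. Its SEs and intervals, given next, hold that difference too. Log2 fold changes were 0.05 for Gad1 (SE 0.09, 95% interval -0.17 to 0.28), 0.02 for Ptprn (SE 0.12, -0.26 to 0.31) and -0.0014 for Ptprn2 (SE 0.14, -0.35 to 0.35). They were -0.05 for Ica1 (SE 0.08, -0.25 to 0.15), 0.04 for Tspan7 (SE 0.10, -0.20 to 0.29) and 0.02 for Abat (SE 0.13, -0.31 to 0.35). For Gad2 the value was 0.0042 with an interval of -2.15 to 2.16, so that a change of several-fold in either direction was not detectable at its 6 to 16 counts. The adjusted p was 1.00 for each of the 7.

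All 6 members above 5 CPM had log2 fold changes within 0.1 of 0, as did 82.9% of the 11597 genes at that level. The median was 0.02 over these 6 members and -0.0030 over those genes. Insulin-depleted libraries lay wholly above non-depleted ones for 9.69% of genes tested and wholly below for 9.89%, and all 7 members tested overlapped. None of the 8 genes shared a 31-base stretch with an annotated Ins1 or Ins2 transcript on either strand, and the longest shared stretch had 14 bases.

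**Figure D2:**
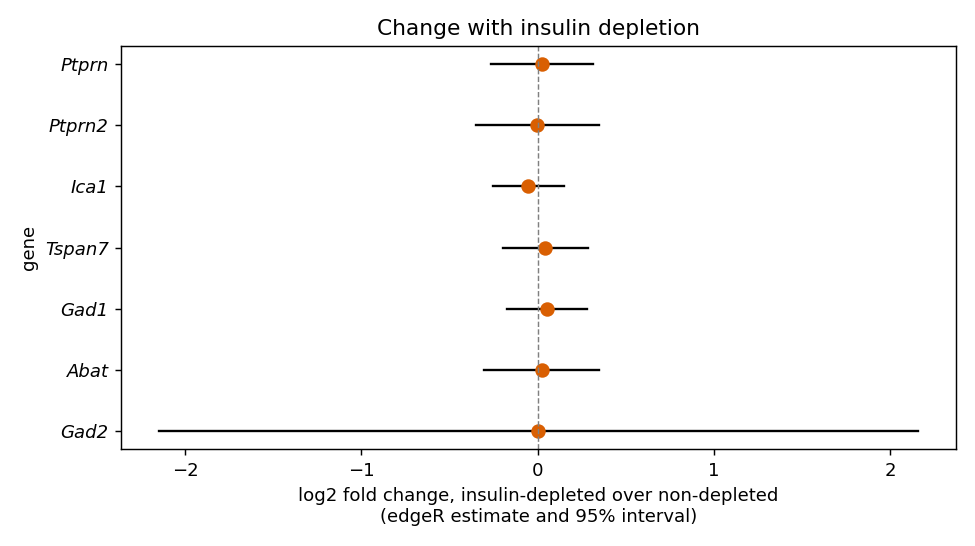
Log2 fold change of insulin-depleted over non-depleted libraries for the 7 members tested, with the edgeR estimate as a point and its 95% interval as a line. The lowest estimate is that of Ica1 (-0.05) and the highest that of Gad1 (0.05), and the interval of Gad2 runs from -2.15 to 2.16.

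For the 6 members above 5 CPM, the libraries of different number within a group lay further apart than libraries of the same number. The log2 ratio of replicate 2 over replicate 1 was 0.31 in insulin-depleted and 0.30 in non-depleted libraries for Ptprn2, 0.23 and 0.23 for Ptprn, and 0.23 and 0.32 for Abat. It was 0.18 and 0.13 for Gad1, 0.12 and 0.10 for Ica1, and -0.16 and -0.10 for Tspan7. By comparison, at the same number the log2 ratio of insulin-depleted over non-depleted libraries ranged from -0.06 to 0.07 for these 6 genes. Ptprn2, the member with the largest of these replicate differences in the insulin-depleted group, had values of -0.0032 and 0.0058 in that second comparison.

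Markers of other cells also moved with the replicate number, and their part in the members' differences was not tested. The 9 acinar-cell markers, from the digestive tissue around islets, summed to 13106 and 5407 CPM in insulin-depleted replicates 1 and 2, and 13075 and 5393 CPM in non-depleted replicates 1 and 2, with a median log2 ratio of replicate 2 over 1 of -1.31 and -1.26. All 9 had counts in every library. The 9 beta-cell markers other than Ins1 and Ins2 had medians of 0.17 in insulin-depleted and 0.12 in non-depleted libraries, and the 7 alpha-cell markers had -0.08 and -0.12. The 5 endothelial markers had medians of 0.16 and 0.15, close to those of the beta-cell markers, and the 4 immune markers with counts had 0.20 and 0.11. For all genes with counts in every library and tested, the medians were 0.02 and 0.03. In bulk RNA, fewer cells of a type and less RNA per cell cannot be told apart.

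**Figure D3:**
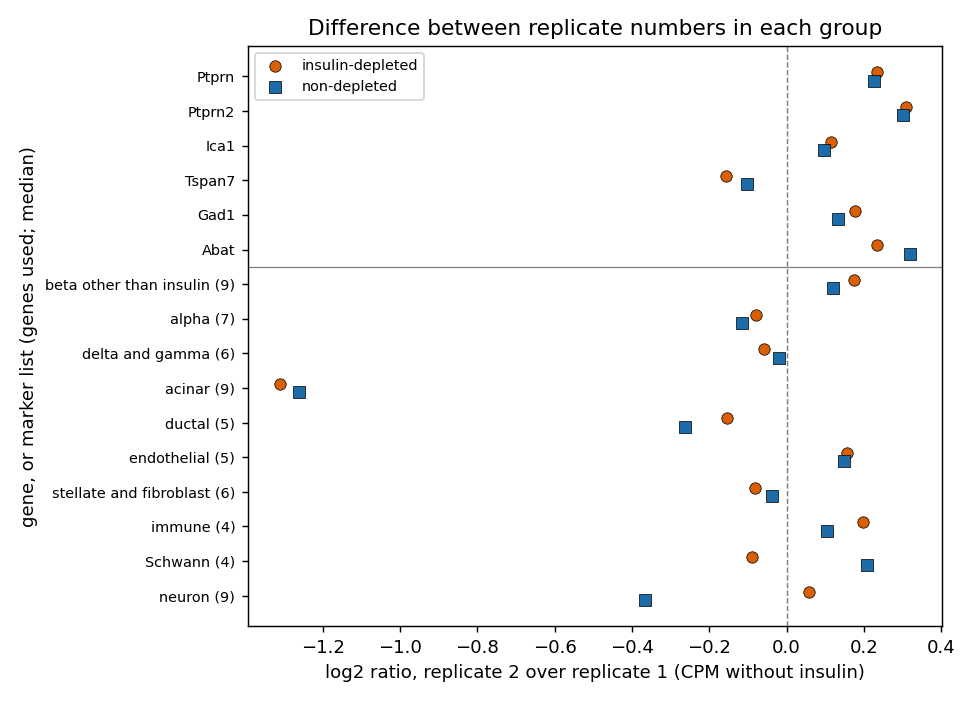
Log2 ratio of replicate 2 over replicate 1 in insulin-depleted (circles) and non-depleted (squares) libraries, for the 6 members above 5 CPM and for the median of each marker list, with the number of genes used in brackets. Ptprn2 lies at 0.31 and 0.30, Tspan7 at -0.16 and -0.10, and the acinar-cell median at -1.31 and -1.26.

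The rest of the GABA pathway was described from a list of 27 genes of GABA and glutamate metabolism and transport, which holds Gad1, Gad2, Abat and Slc32a1. Of these, 13 had a mean of at least 5 CPM, 21 passed the filter, and 0 were called higher and 0 lower. Log2 fold changes were above 0 for 10 and below 0 for 11, with a median of -0.0058. Glul (glutamine synthetase) was the highest, at 275 ± 23.7 CPM per kilobase, followed by Slc6a6 (the taurine transporter) at 62.2 ± 1.00, Glud1 (glutamate dehydrogenase) at 41.1 ± 1.06 and Slc6a8 (the creatine transporter) at 21.5 ± 1.69 (SD, n = 4 each). Gls2, a glutaminase, which makes glutamate, had 1.59 ± 0.111 CPM per kilobase (SD, n = 4). Aldh5a1 had 10.9 ± 1.09, close to Abat with 10.7 ± 1.20 CPM per kilobase (SD, n = 4 each).

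Of the subunits of volume-regulated anion channels, Lrrc8d had 9.28 ± 0.495, Lrrc8b 8.02 ± 0.673, Lrrc8a 4.50 ± 0.306 and Lrrc8c 2.73 ± 0.338 CPM per kilobase (SD, n = 4 each). Some plasma membrane GABA transporter genes were low, with 4 to 10 counts per library for Slc6a11, 0 to 6 for Slc6a12 and 0 to 8 for Slc6a13.

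GABA receptor genes were measured in a list of 23, including the scaffold gene Gphn (gephyrin) and the autophagy gene Gabarap, named for its binding to a receptor subunit. Of these, 5 had a mean of at least 5 CPM, 16 passed the filter and none was called in either direction, with 8 log2 fold changes above and 8 below 0 and a median of 0.0014. Both subunits of the metabotropic GABA-B receptor were present. Gabbr2 had 98.9 and 132 CPM in insulin-depleted replicates 1 and 2, against 97.8 and 132 CPM in non-depleted replicates 1 and 2. Gabbr1 had 55.6 and 55.9 CPM in the insulin-depleted and 60.6 and 58.0 CPM in the non-depleted libraries.

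Of the ionotropic receptor subunits below 5 CPM, named after their values were seen, the highest were Gabra4, with 3.11 and 2.82 CPM in insulin-depleted and 3.42 and 2.34 CPM in non-depleted libraries, and Gabre, with 2.49 and 2.27 CPM in insulin-depleted and 2.51 and 2.17 CPM in non-depleted libraries. Gabra6 and Gabrr3 had 0 counts in all 4 libraries. Gabarap had 217 ± 4.54 and Gphn 11.7 ± 0.132 CPM per kilobase (SD, n = 4 each).

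Other known or proposed islet autoantigens formed a list of 17 genes, all tested, of which 0 were called higher and 2 lower, the targeted Ins1 and Ins2. The median log2 fold change was 0.0014. The zinc transporter gene Slc30a8 (ZnT8) had 111 and 113 CPM in insulin-depleted replicates 1 and 2, against 109 and 112 CPM in non-depleted replicates 1 and 2. G6pc2 (IGRP, an islet glucose-6-phosphatase) had 595 and 587 CPM in the insulin-depleted and 588 and 582 CPM in the non-depleted libraries. Per kilobase of exon union, Slc30a8 had 56.5 ± 0.976 and G6pc2 298 ± 2.72 CPM (SD, n = 4 each). On that scale Ptprn (179 ± 16.6) lay between them and Ptprn2 (58.2 ± 7.08) overlapped Slc30a8. This order depends on length. With its longest transcript as the length Ptprn2 had 119 CPM per kilobase, and other lengths were not tried for Slc30a8 or G6pc2. By mean CPM over the 4 libraries, Ptprn (759) stood above G6pc2 (588), and Ptprn2 (501) above Slc30a8 (111).

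The granule genes Chga and Iapp had 1413 ± 345 and 18520 ± 686 CPM per kilobase (SD, n = 4 each), and Cpe and Reg2 had 1227 ± 33.3 and 505 ± 233. Reg2 and Chga went in opposite directions with the replicate number: Reg2 had 676 and 291 CPM in insulin-depleted and 670 and 286 CPM in non-depleted libraries, while Chga had 3042 and 4681 CPM in insulin-depleted and 3099 and 4753 CPM in non-depleted libraries. The remaining members of that list, Hspd1, Hspa5, Vamp2, Pdx1, Cacna1d, Sox13, Prph and Gfap, had log2 fold changes of -0.20 to 0.04.

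A further list of 11 genes held partners of these proteins, such as Zdhhc17, which encodes a palmitoyl transferase of GAD65, and Pcsk2, a prohormone convertase. All 11 were tested and none was called in either direction, with a median of 0.0011 and a range of -0.03 to 0.09. Zdhhc17 had 76.9 and 63.5 CPM in insulin-depleted and 73.5 and 66.1 CPM in non-depleted libraries.

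For Gad1, Gad2, Ptprn and Ptprn2, the genes of the most similar level in all 4 libraries were sought in the 11597 genes averaging 5 CPM or more, by the root mean square difference of log2 CPM per kilobase. Nearest to Gad1 were Arl6ip4, Tspan5 and Hdac2, each at 0.03. Ptprn was nearest to Ptms (0.04), Camk2n1 (0.06) and Gnai2 (0.07), and Ptprn2 to Rcan3 (0.02), Bex1 (0.05) and Nudc (0.05). Gad2 had no close neighbour at that minimum, and the nearest, Slit2, Ptprc and Foxp2, were 2.72, 3.01 and 3.21 away. With 4 libraries this measure mostly reflects level.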

How the data were processed

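Counts per gene of 4 bulk RNA-seq libraries of mouse islets were used as the authors deposited them. Reads were processed with cutadapt 4.8 and STAR 2.7.11b against GRCm38/mm10, as the submitters' processing notes list. For the program that counted reads, and how it treated strand, read pairs and multiply mapped reads, the answer is not given in the sources used here. All deposited values are whole numbers, and they were treated as raw counts, also in the non-depleted columns, which were registered under the unit of estimated counts because their names hold the word size. All 55536 gene IDs matched GENCODE M21, which gave positions and lengths.

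Genes were filtered with filterByExpr, leaving 19723, scaled by TMM and tested with the edgeR 4.0.16 quasi-likelihood test in R 4.3.3, with Benjamini-Hochberg adjustment over all genes tested and a threshold of 0.05. DESeq2 1.42.0 and limma-voom 3.58.1 were alternatives. The edgeR procedure was also run on simulated data, with the same spread for every gene and libraries drawn independently. That run does not cover the differences shared by libraries of the same number. CPM used library totals without Ins1 and Ins2. Ratios between genes were tested with exact sign-flip and permutation tests, which 4 libraries limit to p = 0.125 at the least for the sign-flip test. Depth was 19316173 to 65030111 counts; intervals and floors cover counting error only. Genes outside the members were named from fixed lists by a mean of at least 5 CPM; genes below that level were named after their values were seen. The members and lists were chosen with earlier results of these data known. Some genes of the lists are not reported here by name, although the counts over the lists include them.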

Additional observations from a re-analysis of the deposited data

How the results depend on the processing

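No member tested was called under any alternative run, which changed the scaling, filter, tool or block, took the counts in twos or left out a library. Gad2 was not tested with counts in twos, where 6 members passed the filter. With the replicate number as a block, edgeR called 9 of 19723 genes, against 2 without it, and 0 members; the labels do not say that a number marks shared animals. Deviations of same-numbered libraries correlated at 0.845 over 11554 genes. Under the block the log2 fold changes were 0.05 for Gad1, 0.17 for Gad2, 0.02 for Ptprn, -0.0019 for Ptprn2, -0.05 for Ica1, 0.04 for Tspan7 and 0.02 for Abat, and the changes of the Gad2 over Gad1 and Ptprn over Ptprn2 log2 ratios were 0.12 and 0.03. Ptprn2 changed sign with library totals (0.0022), DESeq2 size factors (0.00064), DESeq2 (0.00067) and voom (0.0087); the cause was not tested. Leaving out each library in turn gave -0.030 to 0.13 for Gad1, -0.49 to 0.78 for Gad2, -0.088 to 0.13 for Ptprn, -0.15 to 0.15 for Ptprn2, -0.10 to -0.0069 for Ica1, -0.047 to 0.13 for Tspan7 and -0.12 to 0.18 for Abat. It gave -9.27 to -8.80 for the log2 ratio of Gad2 over Gad1, 1.60 to 1.64 for Ptprn over Ptprn2, and -0.58 to 0.82 and -0.013 to 0.063 for their changes with depletion. With longest transcripts the ratios were -10.11 and 0.85, and with mean protein-coding transcript lengths -11.35 and 1.98. Those mean lengths are shorter than the longest coding sequence for Gad1 and Ptprn. With a pseudocount the ratios were -8.90 and 1.62, and the change of the Gad2 over Gad1 ratio was then 0.16. The 6 to 16 counts of Gad2 limit what can be said of it.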
